A study of Mus musculus with 6 samples.

Results

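The leukocyte integrin subunits described here are 10 genes of the mouse, Itgam, Itgax, Itgal, Itgav, Itga4, Itga5, Itgb1, Itgb2, Itgb3 and Itgb5. The rule took them by gene symbol, with no measured value in it, though the members were chosen with earlier results of these data known. All 10 were found among the 23282 gene entries of each count table. The samples were RAW 264.7 cells, a mouse macrophage line that can form osteoclasts, at day 5 of osteoclast differentiation. The treatment label gave 3 control samples and 3 CPN samples. The series title names chaperonin 60 kDa, a protein-folding complex. Both groups carried the same differentiation label, and the inducer, the origin of the chaperonin, its dose and its time of addition were not given in the sources used here. Whether the samples were separate cultures is not in the labels, and p-values then describe only how these samples varied, a spread that may be technical. The comparison asks how the transcripts of each subunit differed between CPN and control cells.

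Integrins are receptors made of an alpha and a beta chain that bind matrix or other cells and couple to the actin cytoskeleton. The chain that Itgb2 encodes, CD18, pairs with the alpha chains of Itgam, Itgax, Itgal and Itgad and serves phagocytosis and leukocyte adhesion. The chain of Itgb1 pairs with many alpha chains, among them those of Itga4, Itga5 and Itgav. The product of Itgav also pairs with those of Itgb3 and Itgb5, and the pair with Itgb3 is known as the vitronectin receptor by which osteoclasts attach to bone.

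Total counts were between 7957228 and 9713938 per library, and expression is given as CPM, read counts scaled to a common library size with TMM factors. QuantSeq reads the 3′ ends of transcripts, so the CPM of a gene is not divided by its length and levels are compared here between samples, not between genes. Of 8 tested osteoclast markers 6 fell and 1 rose, and their summed level was between 3905 and 4052 CPM in control and between 1722 and 2283 CPM in CPN. Of 7 tested macrophage markers 3 rose and none fell, with summed levels between 1864 and 2459 CPM in control and between 2556 and 2788 CPM in CPN. Of all tested genes 7.62% were higher and 6.39% were lower in CPN. The samples are bulk samples, in which fewer cells of a type and less RNA per cell cannot be told apart. Low genes held many zeros. For the 707 genes averaging 6 to 12 counts, the share of zeros per library ran from 14.0% to 41.2%, and Poisson sampling alone would give 0.0538%.

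In CPN cells the transcript of Itgam rose 3.94-fold, while those of Itgax and Itga4 fell 19.5-fold and 3.33-fold (n = 3 per group). The other 6 tested subunits did not pass edgeR's quasi-likelihood test at an adjusted p of 0.05, and Itgb3 was too low to test. Thus 1 of 9 tested members was higher, where 7.62% of all 11092 tested genes were, and 2 of 9 were lower, where 6.39% of all were. Over either direction the background was 14.0% of tested genes. For 7 of the 9 the groups had no overlapping values, a state found for 32.6% of all tested genes. The median log2 fold change of the 9 was -0.52, against -0.0079 over all tested genes. Scaling by library totals alone moved the split of all calls from 54.4% higher to 43.0% higher and the median of all genes to -0.13.

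**Figure D1:**
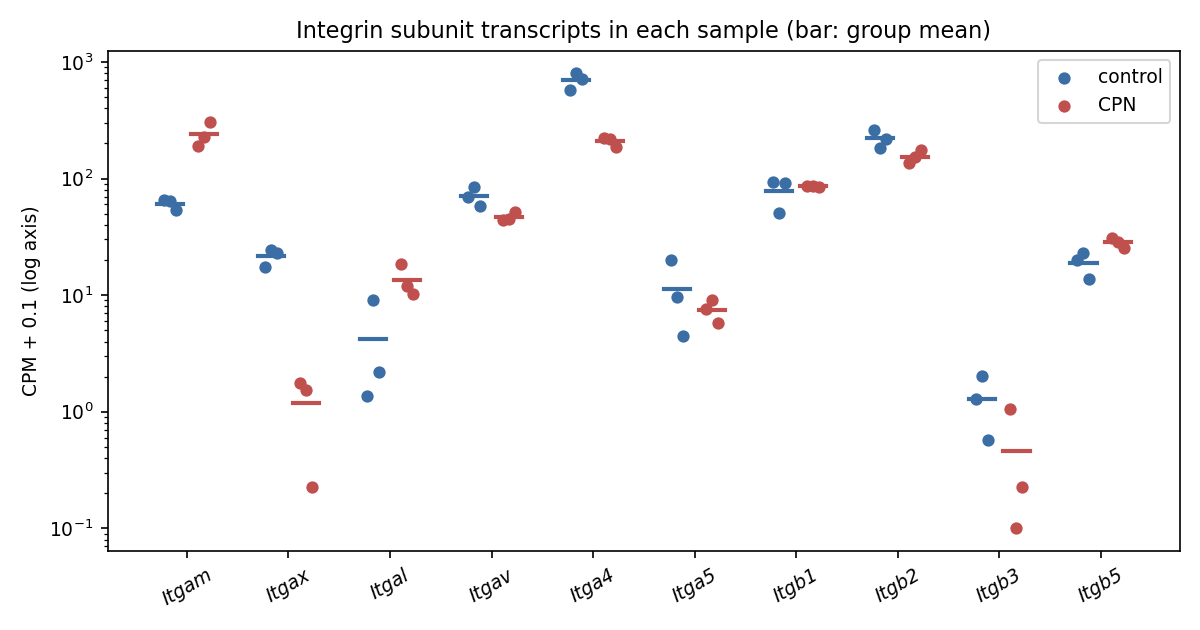
CPM + 0.1 on a log axis for the 10 integrin subunit genes in 3 control (blue) and 3 CPN (red) samples, with a bar at each group mean. Itgam lies above its control values in CPN and Itgax and Itga4 below theirs, and Itgb3 is near the bottom of the axis in both groups.

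Among the alpha chains that pair with Itgb2, Itgam encodes CD11b, the alpha chain of complement receptor 3, and lies on chromosome 7 at 128062640 to 128118491 (mm10, plus strand). Its level was 64.9, 63.7 and 53.4 CPM in control 1 to 3 and 189, 226 and 303 CPM in CPN 1 to 3. Each CPN sample was thus higher than each control sample. The mean rose from 60.7 ± 6.34 to 239 ± 58.0 CPM (SD, n = 3), or 1.98 ± 0.211 (SE) in log2 fold change at an edgeR adjusted p of 5.44e-05.

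Itgax encodes CD11c, the alpha chain of complement receptor 4 and a common dendritic cell marker, and starts 11.1 kb beyond the end of Itgam on the same strand (chromosome 7, 128129547 to 128150657). It had 17.4, 24.1 and 22.8 CPM in the controls and 1.68, 1.44 and 0.124 CPM in CPN 1 to 3, the last of these from a single read. The CPN values rested on 14, 11 and 1 counts against 177, 201 and 195 in control. All 3 CPN samples were below all controls, or -4.29 ± 0.661 (SE) in log2 fold change at an edgeR adjusted p of 0.000852. Of 6 dendritic cell markers 1 could be tested and did not pass, Flt3 and Cd209a were at 0 in every library, and the summed level was between 0.599 and 4.21 CPM in control and between 2.23 and 3.54 CPM in CPN.

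The promoters of these neighbours are shown because they moved in opposite directions, together with that of Itga4, the other member that passed. Each run is the 250 bases upstream of the RefSeq start site (GRCm38.p6, the mm10 build), 5′ to 3′ on the plus strand, at chr7:128062390-128062639 for Itgam, chr7:128129300-128129549 for Itgax and chr2:79255176-79255425 for Itga4. Capitals mark matches to GAGGAA (the core of a PU.1 site), TGGAAA (NFAT), TGANTCA (AP-1) or the kappa B motif of NF-kB, searched on both strands.
Itgam: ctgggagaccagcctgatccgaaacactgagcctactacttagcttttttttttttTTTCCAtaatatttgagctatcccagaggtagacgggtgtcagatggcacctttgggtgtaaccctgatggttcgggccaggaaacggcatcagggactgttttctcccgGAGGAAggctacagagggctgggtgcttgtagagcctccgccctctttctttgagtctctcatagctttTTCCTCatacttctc
Itgax: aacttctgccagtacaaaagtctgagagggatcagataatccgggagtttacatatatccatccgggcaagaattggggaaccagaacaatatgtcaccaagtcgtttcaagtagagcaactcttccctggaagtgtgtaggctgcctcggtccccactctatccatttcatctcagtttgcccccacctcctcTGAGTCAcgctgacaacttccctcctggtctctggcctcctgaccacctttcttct
Itga4: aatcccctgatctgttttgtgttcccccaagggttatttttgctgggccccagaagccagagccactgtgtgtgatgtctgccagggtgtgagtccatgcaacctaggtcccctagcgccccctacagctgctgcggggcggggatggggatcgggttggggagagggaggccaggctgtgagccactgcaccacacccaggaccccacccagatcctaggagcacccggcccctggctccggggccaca
The Itgam run held GAGGAA at -84 to -79 on the plus strand and at -15 to -10 on the minus strand, counted back from the start site, and TGGAAA at -194 to -189 on the minus strand. The Itgax run held TGANTCA at -56 to -50, where the pattern matches on both strands, and the Itga4 run held none of the motifs. Matches did not overlap one another. Of 32851 promoter entries of the same length, 23.3% held GAGGAA, 18.6% held TGGAAA, 6.75% held TGANTCA and 7.25% held the kappa B motif. Promoter entries were found for 7 of the 10 members. Among those that did not pass, the runs of Itgav, Itga5 and Itgb1 also held GAGGAA. Itga5 and Itgb1 held TGGAAA too, and Itgb5 held none of the motifs. A match describes letters only and no binding was measured.

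Itgal encodes CD11a, an alpha chain by which lymphocytes bind ICAM molecules, and lies upstream on chromosome 7 (127296260 to 127335138). It had 1.28, 8.98 and 2.10 CPM in control and 18.2, 11.8 and 10.05 CPM in CPN, from 13, 75 and 18 counts against 152, 90 and 81. The groups did not overlap, but control 2 stood near the CPN values, and the log2 fold change of 1.70 ± 0.688 (SE) did not pass (edgeR adjusted p = 0.131, 95% interval 0.21 to 3.19). Without control 2 it was 2.99 (edgeR adjusted p = 0.00355). With any other single library left out it ran from 1.27 to 1.87 and did not pass (edgeR adjusted p from 0.168 to 0.358).

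The common beta chain of this subfamily, Itgb2, lies on chromosome 10 (77530252 to 77565708). It had 260, 183 and 220 CPM in control and 136, 153 and 174 CPM in CPN. All CPN values were below all control values, with means of 221 ± 38.3 and 154 ± 19.0 CPM (SD, n = 3), yet the log2 fold change of -0.52 ± 0.186 (SE) did not pass (edgeR adjusted p = 0.0863). It did without control 2 (-0.62, edgeR adjusted p = 0.0252). With any other single library left out it ran from -0.61 to -0.39 and did not pass (edgeR adjusted p from 0.097 to 0.317). The log2 ratio of Itgam to Itgb2 was -1.85 ± 0.287 in control and 0.61 ± 0.168 in CPN (SD, n = 3).

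Granulocytes also carry CD11b, and the summed level of 7 granulocyte markers was between 0 and 0.117 CPM in control and between 18.0 and 34.6 CPM in CPN. Nearly all of that was S100a8, with 156, 264 and 144 counts in CPN against 0, 0 and 1. Elane, Camp and Ngp were at 0 in every library, and S100a9, Ltf and Mpo had at most 6 counts in any library. The summed level of 6 stromal markers was between 0 and 6.23 CPM in control and between 12.2 and 20.4 CPM in CPN. Only 1 of them could be tested, Dcn, at 94, 59 and 98 counts in CPN and at 0 in control. The collagen genes did not follow it. Col1a1 had 0, 37 and 0 counts in control and 7, 21 and 0 in CPN. Col3a1 had 0, 13 and 0 in each group, and Col1a2 had 2 counts in control 2 alone. Lum had 11, 63 and 0 counts in CPN and Pdgfrb 14, 0 and 0, both at 0 in control. The labels name RAW 264.7 cells alone, and a marker transcript does not show that cells of its type were present. The part of either list in the integrin values was not tested.

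Among the alpha chains that pair with Itgb1, Itga4 encodes CD49d, which binds fibronectin and the endothelial adhesion molecule of Vcam1 (chromosome 2, 79255426 to 79333123). Its level was 579, 796 and 712 CPM in control and 224, 217 and 186 CPM in CPN, so every CPN sample was below every control. The mean fell from 696 ± 109 to 209 ± 19.8 CPM (SD, n = 3), or -1.73 ± 0.173 (SE) in log2 fold change at an edgeR adjusted p of 3.72e-05. The 3′ end of Itga4 overlaps Cerkl on the opposite strand, which had 772 counts over the 6 libraries and differed by -1.91 on the log2 scale (edgeR adjusted p = 0.116). Use of strand in the counting is not given, so reads from the overlap could belong to Itga4 or Cerkl.

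Itga5, the alpha chain of the fibronectin receptor (chromosome 15, 103344286 to 103366763), had 19.8, 9.58 and 4.32 CPM in control and 7.44, 8.91 and 5.71 CPM in CPN. The control values spread over the whole CPN range and the log2 fold change of -0.62 did not pass (edgeR adjusted p = 0.561). Without control 1 it was 0.080. Itgb1, the beta chain shared by this group (chromosome 8, 128685654 to 128733200), had 92.4, 50.3 and 92.0 CPM in control and 86.3, 86.7 and 85.0 CPM in CPN. The groups overlapped, with a log2 fold change of 0.14 (95% interval -0.38 to 0.65, edgeR adjusted p = 0.786) that was -0.084 without control 2. The log2 ratio of Itga4 to Itgb1 was 3.19 ± 0.696 in control and 1.27 ± 0.127 in CPN (SD, n = 3).

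Itgav, the alpha chain of the vitronectin receptors (chromosome 2, 83724397 to 83806916), had 69.3, 83.7 and 57.9 CPM in control and 43.7, 44.7 and 51.1 CPM in CPN. CPN values were all below the control values, but the log2 fold change of -0.60 ± 0.218 (SE) did not pass (edgeR adjusted p = 0.0936, 95% interval -1.07 to -0.12). Itgb5, a beta chain that pairs with the product of Itgav (chromosome 16, 33829665 to 33949338), lay the other way, with 20.1, 23.0 and 13.7 CPM in control and 31.1, 28.4 and 25.1 CPM in CPN. Its log2 fold change of 0.57 ± 0.305 (SE) did not pass either (edgeR adjusted p = 0.263). The log2 ratio of Itgav to Itgb5 was 1.88 ± 0.145 in control and 0.71 ± 0.272 in CPN (SD, n = 3), and the groups did not overlap.

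Itgb3, the beta chain of the osteoclast vitronectin receptor (chromosome 11, 104608000 to 104670476), had 12, 16 and 4 counts in control and 8, 0 and 1 in CPN. These are 1.18, 1.92 and 0.467 CPM against 0.960, 0 and 0.124 CPM, with overlapping groups, and the 0 in CPN 2 allows up to 0.393 CPM (3 counts, counting error only). With no filter on low counts the log2 fold change was -1.67 (edgeR adjusted p = 0.669). The value depended on single libraries: it was -3.95 without CPN 1 (edgeR adjusted p = 0.338), -1.10 without CPN 2 (edgeR adjusted p = 0.774) and -4.33 without both control 3 and CPN 1 (edgeR adjusted p = 0.372), and none of these passed. No difference in Itgb3 was detected with these counts. Platelets also carry this chain, and the summed level of 6 platelet markers was between 18.5 and 28.1 CPM in control and between 13.6 and 30.3 CPM in CPN, with Ppbp and Gp6 at 0. Most of the control sum was Treml1, at 275, 206 and 148 counts against 24, 104 and 170 in CPN. Gp1bb, a platelet glycoprotein gene, went the other way, with 6, 0 and 2 counts in control and 65, 84 and 27 in CPN, and passed (edgeR adjusted p = 0.0162). That call ended without control 3, CPN 1 or CPN 2 (edgeR adjusted p from 0.0637 to 0.0973) and under limma-voom (0.0867). Pf4, at 5, 0 and 8 counts against 24, 22 and 47, did not pass (edgeR adjusted p = 0.144). Here too the labels name RAW 264.7 cells alone, and these transcripts do not show that platelets were present. The part of these markers in the Itgb3 values was not tested. Lymphocyte and epithelial markers summed to at most 3.01 and 1.75 CPM in any library.

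**Figure D2:**
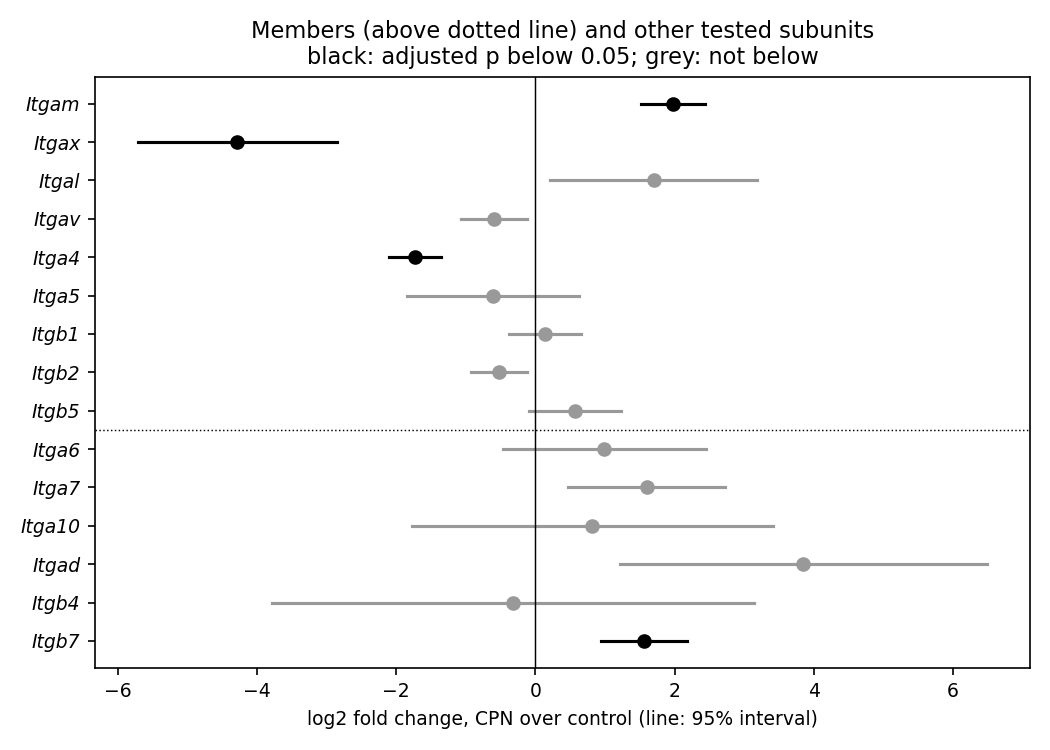
Log2 fold change of CPN over control with its 95% interval for the 9 tested members (above the dotted line) and 6 other tested integrin subunits. Black marks an edgeR adjusted p below 0.05, reached by Itgam, Itgax, Itga4 and Itgb7.

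The known pairs made of members were compared as log2 ratios of alpha to beta CPM within each sample, 8 pairs in all. A ratio of 3′ counts sets no stoichiometry, so only its shift between groups is read. For 6 of the 8 pairs the groups did not overlap, and each of these had the smallest p that 3 against 3 samples allow (two-sided exact permutation test, p = 0.1, 0.133 after Benjamini-Hochberg adjustment), so the design cannot reach 0.05. Set against the same beta chain, the ratios of all tested genes did not overlap between groups for 38.4% of genes with Itgb2, 25.2% with Itgb1, 40.5% with Itgb5 and 19.9% with Itgb3. Pairs that share a chain are not independent, and 5 of the 6 alpha chains were already separated on their own. The shift was 2.46 for Itgam to Itgb2, 2.44 for Itgal to Itgb2 and -3.46 for Itgax to Itgb2. For Itgav it was -0.77 to Itgb1 and -1.17 to Itgb5, and for Itga4 to Itgb1 it was -1.91. The groups overlapped for Itga5 to Itgb1 (-0.55, two-sided exact permutation p = 0.4, adjusted 0.457) and Itgav to Itgb3 (0.46, two-sided exact permutation p = 0.5, adjusted 0.5). Leaving out 1 library moved several shifts. Without control 2 that of Itgav to Itgb1 was -0.34 and that of Itgal to Itgb2 was 3.28, and without control 1 the latter was 1.82. The shift of Itga4 to Itgb1 was -1.52 without control 2 and -2.19 without control 1. Without CPN 3 that of Itgax to Itgb2 was -2.80. For Itga5 to Itgb1 the shift ran from -1.22 (without control 3) to -0.19 (without control 1), and it was -0.26 without control 2. For Itgav to Itgb3 it ran from 0.17 (without CPN 2) to 0.96 (without CPN 1).

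**Figure D3:**
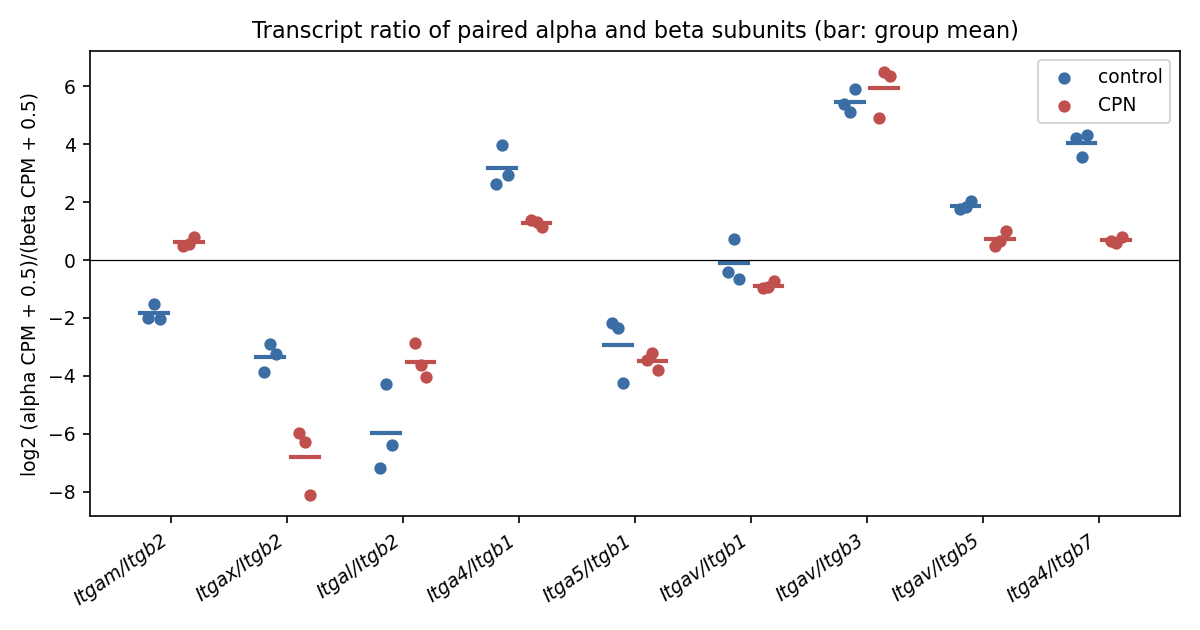
Log2 ratio of alpha to beta CPM (each + 0.5) in every sample for 8 pairs of members and, at the right, for Itga4 to Itgb7, with a bar at each group mean. The ratio of Itgam to Itgb2 is higher in each of the 3 CPN samples than in any control sample.

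Of 17 other integrin subunits, 8 had no count in any library and 6 could be tested, of which Itgb7 passed. Over all tested genes 14.0% passed in either direction. Itgb7, a beta chain that pairs with the product of Itga4 in a gut homing receptor, rose from 30.9, 66.8 and 35.3 CPM to 141, 145 and 106 CPM, or 1.56 ± 0.283 (SE) in log2 fold change at an edgeR adjusted p of 0.00267. The log2 ratio of Itga4 to Itgb7, a pair chosen after its values were seen, was 4.03 ± 0.406 in control and 0.69 ± 0.115 in CPN (SD, n = 3). Itgad, a further partner of Itgb2 beside Itgax on chromosome 7, had 0, 12 and 1 counts in control and 78, 73 and 29 in CPN but did not pass (log2 fold change 3.85 ± 1.22, edgeR adjusted p = 0.0536). Itga7, a laminin receptor chain, was also above control in each CPN sample without passing (log2 fold change 1.60, edgeR adjusted p = 0.0603).

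The window around Itgam and Itgax, with 75 kb on either side, held 7 genes with an entry, these members included. Of the 5 that could be tested, only these members, which had set the window, passed. Cox6a2, a respiratory chain subunit gene downstream that was chosen after its values were seen, had 0, 428 and 11 counts in control and 1004, 1822 and 1517 in CPN (edgeR adjusted p = 0.057). In every CPN sample Itgam and Itgad were above all controls, and Itgax, which lies between them, was below all controls. An annotated protein-coding gene, Gm49368, overlaps Itgam on the same strand and has no entry among the counted genes.

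Of 6 tested genes for integrin ligands, Spp1 passed, where 14.0% of all tested genes did in either direction. Spp1, which encodes osteopontin, a ligand of the chains of Itgav and Itga4, rose from 584 ± 128 to 4234 ± 1288 CPM (SD, n = 3), a change of 2.86 on the log2 scale at an edgeR adjusted p of 8.92e-06. Icam1, a ligand of CD11a and CD11b, had 51.7 ± 16.2 CPM in control and 40.2 ± 10.04 CPM in CPN and did not pass (edgeR adjusted p = 0.467). Vcam1 and Madcam1, ligands of the Itga4 chain, had no count in any library, and the matrix ligand Fn1 had 4 counts in control 3 alone. The median of this list was 0.36.

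Inside-out activation is the step in which talin and kindlin bind the beta tail and switch the receptor to high affinity. Of 18 tested genes of this list, 2 rose and 2 fell, with a median log2 fold change of -0.22. Over all tested genes 14.0% passed in either direction. Fyb, an adaptor that links receptor signals to integrin activation, rose from 127 ± 15.4 to 426 ± 33.6 CPM (edgeR adjusted p = 3.39e-05). Rap1b, a small GTPase that recruits talin, rose 1.67-fold (edgeR adjusted p = 0.0104), a call that ended without control 3 (edgeR adjusted p = 0.0668). Rasa3, a GTPase-activating protein that restrains Rap activity, fell 3.46-fold (edgeR adjusted p = 0.000687), and Cib1, a calcium-binding protein that binds integrin alpha tails, fell 1.96-fold (edgeR adjusted p = 0.00418). Talin and kindlin did not pass: Tln1 had 558 ± 24.6 and 561 ± 109 CPM and Fermt3 230.5 ± 15.7 and 219 ± 44.7 CPM in control and CPN (SD, n = 3). The second talin gene, Tln2, had 9.45 ± 2.69 and 3.52 ± 1.74 CPM (SD, n = 3). Every CPN value of Tln2 was below every control value (log2 fold change -1.42, edgeR adjusted p = 0.159).

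Among 28 tested genes of outside-in signalling and adhesion linkage, 1 rose and 2 fell, with a median of -0.06. Over all tested genes 14.0% passed in either direction. Vcl, which encodes vinculin, a link from talin to actin, fell from 73.1 ± 11.4 to 31.9 ± 6.99 CPM (edgeR adjusted p = 0.0052). It overlaps Ap3m1 on the opposite strand, whose log2 fold change was 0.0045. Tyrobp, the adaptor DAP12 that carries integrin signals to SYK, fell 1.65-fold (edgeR adjusted p = 0.00602). Zyx, which encodes the focal adhesion protein zyxin, rose 1.96-fold (edgeR adjusted p = 0.0388), but the call ended without control 1, control 3 or any CPN library (edgeR adjusted p from 0.0554 to 0.151) and under library totals alone (0.0699) or a replicate block (0.0598).

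Of 11 tested genes for lateral partners of integrins in the membrane, 4 rose and 2 fell, with a median of 0.17. Over all tested genes 14.0% passed in either direction. Slc3a2, the CD98 heavy chain that binds beta tails and carries amino acid transporters, rose 4.10-fold (log2 fold change 2.03, edgeR adjusted p = 0.00257). It had 151, 493 and 181 CPM in control and 1453, 1005 and 925 CPM in CPN. Without control 2, the highest of the controls, its log2 fold change was 2.78. Cd47, an integrin-associated protein, rose 1.73-fold (edgeR adjusted p = 0.0132), and the tetraspanin gene Cd53 rose 1.77-fold (edgeR adjusted p = 0.0189). The call of Cd47 ended without control 1 or CPN 1 (edgeR adjusted p = 0.0674 and 0.0571), and that of Cd53 without control 3, CPN 2 or CPN 3 (0.102, 0.0681 and 0.0885). The tetraspanin gene Cd9 fell 1.98-fold (edgeR adjusted p = 0.00202). Plaur, the urokinase receptor, rose 2.49-fold (edgeR adjusted p = 0.0284) and the tetraspanin gene Cd81 fell 1.80-fold (edgeR adjusted p = 0.0453), both named outside the rule, after their values were seen, because they complete the counts. The call of Plaur ended without control 3, CPN 1 or CPN 2 (edgeR adjusted p from 0.0618 to 0.15), and that of Cd81 without control 1, control 3, CPN 1 or CPN 2 (0.137 to 0.175) and under a replicate block (0.0521). Without both control 3 and CPN 1, the calls of Itgb7, Cib1, Vcl, Tyrobp, Cd9 and Slc3a2 also ended (edgeR adjusted p from 0.079 to 0.114).

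**Figure D4:**
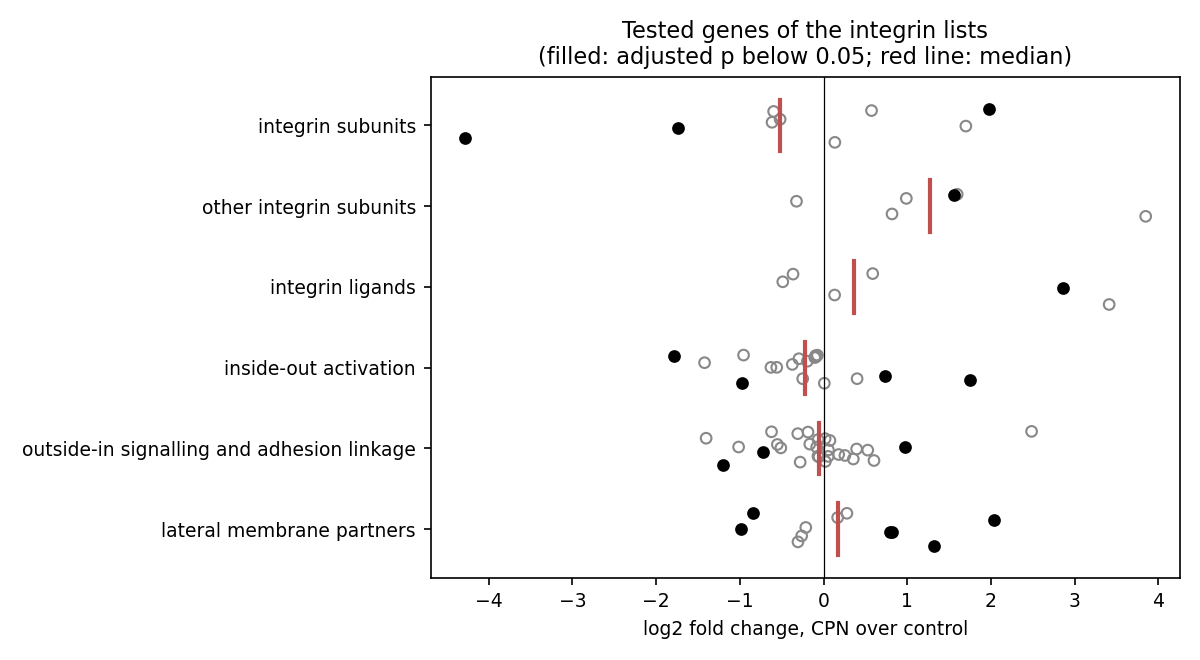
Log2 fold change of CPN over control for every tested gene of the integrin subunit list and 5 related lists, with filled points for an edgeR adjusted p below 0.05 and a red line at the median of each list. Medians lie between -0.52 for the subunits and 1.27 for the 6 other tested subunits.

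For each member that passed, the genes with the closest pattern over the 6 samples were found among 9173 others, as the root mean square difference of log2(CPM + 0.5) profiles, each centred on its own mean. For Itgam these were Gpr65 (0.123), Mcfd2 (0.135) and Rnaset2a (0.174), the last a gene with a near-identical copy. For Itgax they were Neurl1b (0.431), Cx3cr1 (0.532) and Tnfsfm13 (0.661), and for Itga4 they were Acaa2 (0.134), Pvrl1 (0.151) and Ahnak (0.168). The closest profile to Itgax was farther away than any of the 3 closest to Itgam or Itga4. The CPN values of Itgax rested on 14, 11 and 1 counts, and the part of counting error in its distances was not tested.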

How the data were processed

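Messenger RNA of 3 control and 3 CPN samples was measured by QuantSeq 3′ libraries from TRIzol RNA, as the labels' protocols state. Each sample has 1 deposited table of raw counts per gene symbol. The authors aligned reads to mm10 with Bowtie2 and counted them with bedtools, per the submitters' processing notes, while their versions, the annotation, the strand setting and the treatment of multiple alignments were not given in the sources used here. Replicates of a group differed by far more than sampling noise (chi-square per degree of freedom from 16.2 to 47.7).

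The whole table was fitted with edgeR 4.0.16 (R 4.3.3): TMM scaling, filterByExpr (minimum count 10, minimum total 15), quasi-likelihood test and Benjamini-Hochberg adjustment over 11092 genes at 0.05. The biological coefficient of variation was 0.355 over all genes. The SE is the size of the log2 fold change divided by the square root of F. Code was tested on simulated counts. Positions are from GENCODE and promoters from RefSeq. The members and lists were chosen with earlier results of these data known. The rule named all members, up to 4 genes with the smallest p per list among those that passed without overlap, and the 3 closest profiles (mean of at least 5 CPM, unnamed gene models left out) per member that passed. Of the list symbols, 1 each of the ligand, inside-out and outside-in lists had no entry, because a second symbol for the same gene was listed. Alternatives were other size factors, DESeq2 1.42.0, limma-voom (limma 3.58.1), other filters, a fold of 1.5, a replicate block, removal of the ribosomal RNA precursor Rn45s and left-out libraries. Some genes near the members are not reported here.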

Additional observations from a re-analysis of the deposited data

How the results depend on the processing

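The calls of Itgam, Itgax and Itga4 held in all 16 alternatives, with log2 fold changes from 1.78 to 2.12, -4.76 to -3.76 and -1.85 to -1.61. Of 10 subunits, 1 was called higher, and 2 were under limma-voom and with no filter (Itgal joined, log2 fold change 2.24 and 1.70, adjusted p 0.0476 and 0.049), with a range of 1 to 2 when a library was left out. The number lower was 2, and 4 under library totals alone, where Itgb2 (-0.64) and Itgav (-0.71) joined. Leaving out a library gave 2 to 3 lower. The log2 fold change reversed for Itga5 without control 1 (0.080, range -1.001 to 0.080 over left-out libraries) and Itgb1 without control 2 (-0.084, range -0.084 to 0.27), neither of which passed.

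Over all genes 1554 were called, 697 against a fold of 1.5, 446 without both control 3 and CPN 1, and 884 to 1954 with a library left out. The other subunits had 1 higher, 3 under DESeq2 or no filter, 2 without Rn45s, 0 without both libraries and 1 to 3 with a library left out. Ligands had 1 higher and 2 under DESeq2. Inside-out genes had 2 higher and 2 lower, each 1 against a fold of 1.5 and 1 without both libraries, with 1 to 2 higher when a library was left out. Outside-in genes had 1 higher, 2 under DESeq2 and 0 under library totals alone, a fold of 1.5, the replicate block or without both libraries, and 0 to 1 with a library left out. They had 2 lower, 4 under library totals alone, 1 against a fold of 1.5 and 0 without both libraries. Lateral partners had 4 higher, 1 against a fold of 1.5, 0 without both libraries and 2 to 5 with a library left out. They had 2 lower, 1 under the replicate block, 0 against a fold of 1.5 or without both libraries and 1 to 2 with a library left out. The shift of the Itgav to Itgb3 ratio was 1.40 with a pseudocount of 0.1 CPM in place of 0.5. Apart from fewer samples in the fits with left-out libraries and the higher bar of a fold of 1.5, the cause was not tested.

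Whether same-numbered samples were paired is not in the labels. The deviations of same-numbered samples correlated at -0.062, 0.016 and 0.034, and not every sample correlated best with its own number. With the replicate block 1326 genes were called, and the 3 member calls held.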
